A study of Homo sapiens with 9 samples.

Results

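Matricellular and adhesive glycoproteins are secreted proteins of the extracellular matrix that bind cells, growth factors and matrix fibres. The 10 genes described here, TNC, SPARC, SPON1, SPON2, THBS1, THBS2, FN1, POSTN, SPP1 and TGFBI, were chosen by name and matched by gene symbol among the 27111 genes of the expression tables. The choice was made with earlier results of these data known. Shares of members called, set beside those of all tested genes, are therefore a description only. RNA-seq was performed on multicellular tumor spheroids (MTSs) of PC3, a human prostate cancer line established from a bone metastasis, with 3 libraries in each of 3 groups. Empty cells carried the control vector without a coding sequence, NF-YAl cells the long and NF-YAs cells the short splice variant of murine NF-YA, the DNA-binding subunit of the CCAAT-binding factor NF-Y. All 3 groups were stably transduced with lentiviral particles and selected with puromycin, and all MTSs grew in medium with Matrigel, a basement membrane extract of a mouse tumor. Each group is 1 transduced population, each library comes from a pool of MTSs, and the study's methods describe the replicates as independent experiments. Replicates are named A, B and C, except that NF-YAl has A, B and D. In bulk RNA, a change in the share of cells that express a gene cannot be told apart from a change in RNA per cell.

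Fibronectin (FN1) forms fibrils on cells and is bound by integrins. Tenascin-C (TNC), SPARC, the thrombospondins (THBS1 and THBS2) and osteopontin (SPP1) are the classic matricellular proteins: they build little structure themselves and instead alter how cells adhere to matrix, and several of them are known from tumor stroma and from invading tumor edges. Spondins (SPON1 and SPON2) share the thrombospondin type I repeat with THBS1 and THBS2, while periostin (POSTN) and TGFBI share fasciclin domains and are known as genes that transforming growth factor beta (TGF-β) induces.

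NF-Y recognises the pentamer CCAAT, so the RefSeq promoters of the members (GRCh38.p14, from 250 bases before to 50 bases after the start site) were searched for CCAAT on both strands. Of 10 members, 9 had promoters in the table, 11 promoters in all, and 3 of the 11 held the pentamer, against 34.61% of all 35116 promoters of this length. The windows of the 3 matches are shown because they mark where the transduced factor's motif lies in members with different responses. Capitals mark CCAAT, or ATTGG where the match is on the opposite strand, and each sequence is given on the strand of its gene.

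FN1, chr2:215436206-215436250, minus strand, motif beginning 162 bases before the start site: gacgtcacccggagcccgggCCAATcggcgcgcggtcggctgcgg

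THBS1, chr15:39580993-39581037, plus strand, motif beginning 66 bases before the start site: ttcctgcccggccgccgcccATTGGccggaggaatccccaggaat

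SPON2, chr4:1172618-1172662, minus strand, the nearest of its 3 promoters to the gene's end, motif beginning 59 bases before the start site: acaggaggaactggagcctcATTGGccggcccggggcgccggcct

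No match was found in the windows of TNC, SPARC, THBS2, SPP1, TGFBI or POSTN, which says only that the 5 letters are absent there. SPON1 is located at chr11:13984270-14289679 of GRCh37 on the plus strand, with 17 exons. Its primers are among those the study lists, and the study's RT-qPCR of selected metastasis genes was done on xenograft tumors and not on MTSs. The forward primer matched the gene exactly once, in exon 3 at chr11:14063150-14063170, and is shown to place that assay on the gene whose counts are given below. The reverse primer had no exact match in the gene, and its closest stretch of the transcript differed at 3 of 21 bases, the first ones of the primer. From the forward primer to the end of that stretch the transcript spans 178 bases.

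SPON1 forward primer: tccaggtgttttggatagcac

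Total expected counts ranged from 25033571 to 27163976 in Empty, from 18092007 to 23985635 in NF-YAl and from 18076979 to 21533481 in NF-YAs. NFYA, the check of the labels, had 91.8 ± 4.24 CPM (read counts relative to library size, scaled by TMM; mean ± SD, n = 3 here and below) in Empty. NF-YAl libraries had 341 ± 49.3 CPM and NF-YAs libraries 260.6 ± 5.71 CPM, and reads of the murine transgene that align to human NFYA are part of these counts. NF-YAl replicate D stood apart: its 10 most abundant genes took 5.91% of its counts, against 9.08% to 14.0% in the other libraries. Deposited TPM (abundance corrected for transcript length) of single genes were therefore compared between genes within a group, and CPM were compared between groups. Comparisons were tested with edgeR's quasi-likelihood F test over 17108 genes that passed the filter on low counts. A gene was called at a Benjamini-Hochberg adjusted p under 0.01 with an absolute log2 fold change above 1. The filter kept 8 of the 10 members and left out POSTN and TGFBI. SPP1, nearly absent from Empty, and THBS2, with 6 to 8 counts in each Empty library, passed it only through the NF-YA libraries. Both were higher there, so counts over the 8 describe the members that passed. Adjusted p-values below are from edgeR unless another tool is named.

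FN1 was the most abundant member in Empty and SPARC in both NF-YA lines. On the TPM scale, the Empty levels were 235.9 ± 33.1 for FN1, 95.3 ± 8.93 for SPARC, 19.6 ± 2.55 for TNC and 8.43 ± 1.52 for THBS1, and none of these 4 neighbours in the order overlapped with the next. SPON1 followed at 1.17 ± 0.315 TPM and overlapped in range with SPON2 at 0.763 ± 0.222 TPM. Within each Empty library SPON1 was the higher, at 1.52, 0.91 and 1.08 TPM against 1.02, 0.63 and 0.64 TPM in replicates A, B and C. THBS2, TGFBI, SPP1 and POSTN were all below 0.1 TPM in every Empty library. In NF-YAl, SPARC led with 602 ± 235 TPM and FN1 had 199 ± 55.8 TPM, while TNC (18.5 ± 6.90 TPM) and THBS1 (17.6 ± 5.72 TPM) overlapped. Within a library, THBS1 TPM was 1.61, 0.727 and 0.738 times TNC TPM in NF-YAl replicates A, B and D. In NF-YAs the order was SPARC (267 ± 12.5 TPM), FN1 (170 ± 16.5 TPM), TNC (61.6 ± 3.96 TPM) and THBS1 (46.1 ± 4.78 TPM), with no overlap between neighbours, and THBS2 at 1.27 ± 0.706 TPM came next.

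**Figure D1:**
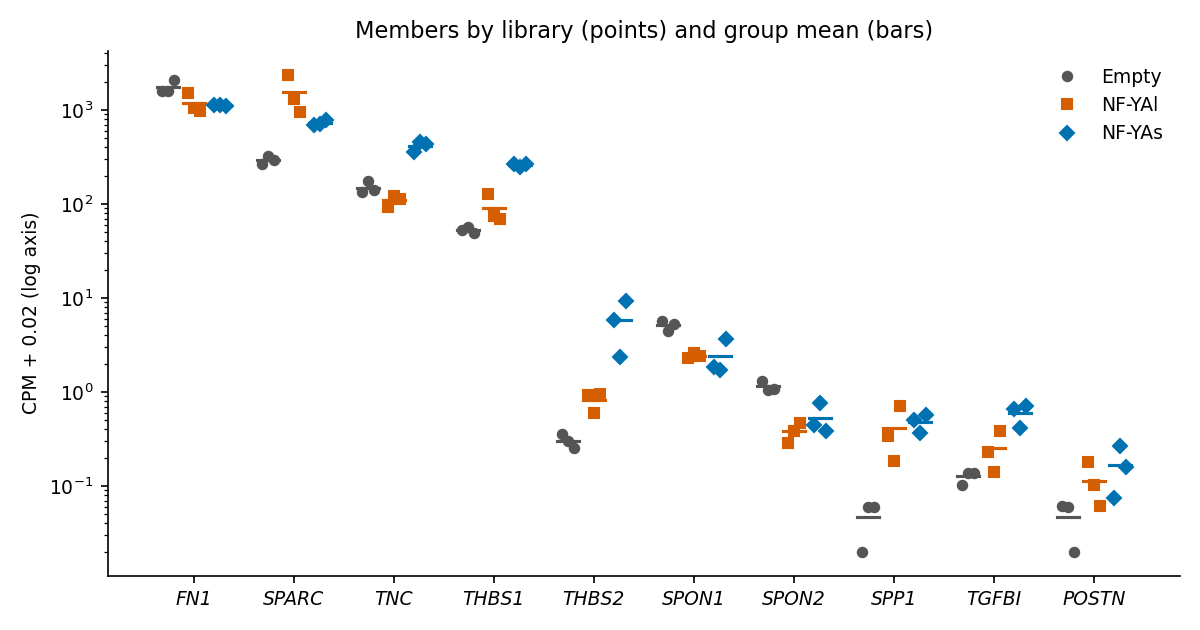
CPM (TMM-scaled, 0.02 added, log axis) of the 10 members in each library, with bars at the group means of Empty, NF-YAl and NF-YAs (3 libraries each). TNC, THBS1 and THBS2 are highest in the 3 NF-YAs libraries, SPARC in the 3 NF-YAl libraries, and SPP1, TGFBI and POSTN stay below 1 CPM in all 9.

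In NF-YAl against Empty, 2 of the 8 tested members rose, SPARC and SPP1, where 4.76% of all tested genes were called higher. SPON1 and SPON2 fell, where 3.5% of all tested genes were called lower. TNC, THBS1, THBS2 and FN1 were not called. In NF-YAs against Empty, 5 of the 8 rose, TNC, SPARC, THBS1, THBS2 and SPP1, against 5.44% of all tested genes, and SPON1 alone fell, against 3.9% of all tested genes. In NF-YAl against NF-YAs, tested directly, SPARC was higher in NF-YAl (1 of 8 members, 1.74% of all tested genes) and TNC, THBS1 and THBS2 were lower (3 of 8 members, 2.86% of all tested genes). Median log2 fold changes of the 8 members were 0.16, 1.40 and -0.35 in these 3 comparisons, beside 0.011, -0.0026 and 0.018 over all tested genes. SPP1 and THBS2 are in these medians, though they passed the filter only through the NF-YA libraries, where both were higher. The medians and counts therefore describe the members that passed and show no shift of the whole list. The first and second comparison share the Empty libraries, so they are not independent.

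**Figure D2:**
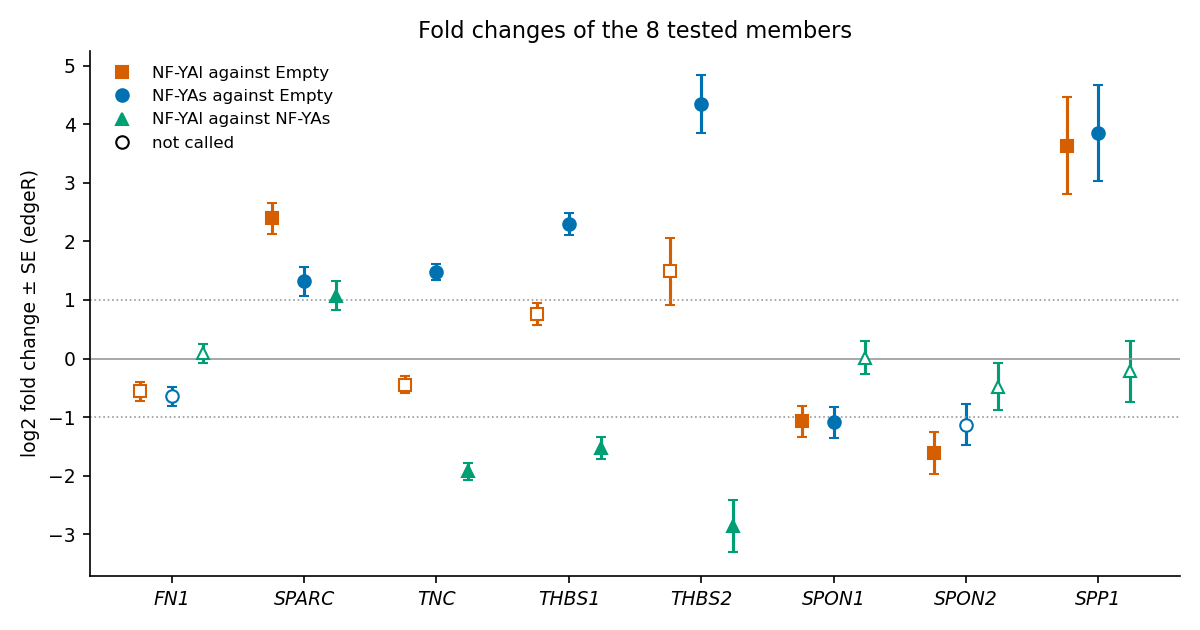
log2 fold change with SE (edgeR) of the 8 tested members in the 3 comparisons; filled symbols were called, open symbols were not, and dotted lines mark a log2 fold change of 1 and of -1. SPARC and SPP1 lie above 1 in both lines, while TNC, THBS1 and THBS2 are called against Empty in NF-YAs and not in NF-YAl, where THBS2 lies beyond 1 with an adjusted p of 0.0679, and are lower in NF-YAl than in NF-YAs.

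Among the adhesive proteins, FN1 (chr2:216225163-216300796 of GRCh37, minus strand, 46 exons) had 1574, 1597 and 2080.3 CPM in Empty replicates A, B and C, 1518, 1061 and 979 CPM in NF-YAl replicates A, B and D, and 1115, 1136 and 1099.6 CPM in NF-YAs replicates A, B and C. On this scale all 6 NF-YA libraries were below all Empty libraries, NF-YAl replicate A by the least. In TPM, which was not the scale chosen between groups, NF-YAl overlapped with Empty, at 226.6 and 235.7 in NF-YAl replicates A and D against 197.7 in Empty replicate B. The value of NF-YAl replicate D came from 23837 counts, while 25954 counts gave 134.9 TPM in NF-YAl replicate B. NF-YAs stayed below Empty in TPM. Against Empty, NF-YAl showed a log2 fold change of -0.56 (SE 0.16, adjusted p = 0.0206). NF-YAs showed one of -0.65 (SE 0.16, adjusted p = 0.00881). Both lay within the limit of 1 on the fold change, so FN1 was not called in either line. Between the lines the groups overlapped, with a log2 fold change of 0.087 (SE 0.16, adjusted p = 0.735).

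FN1 was also resolved by transcript. RSEM distributed its reads over 10 RefSeq transcripts, from 20707 reads in the library with the fewest to 52856 in the one with the most, and 7 of the transcripts took at least 5% of the gene's TPM in some group. The transcript of 8724 bases took 0.96%, 2.19% and 2.19% of FN1 TPM in Empty replicates A, B and C, 19.4%, 15.4% and 19.7% in NF-YAl replicates A, B and D, and 8.36%, 14.5% and 7.26% in NF-YAs replicates A, B and C. The 3 groups did not overlap, with means of 1.78% ± 0.710, 18.1% ± 2.43 and 10.1% ± 3.92. The transcript of 8449 bases, the form with the highest mean in each group, went the other way, with 43.6% ± 2.09 in Empty, 36.96% ± 1.97 for NF-YAs and 30.0% ± 4.12 for NF-YAl, again without overlap. The second form, of 8815 bases, overlapped among the groups at 26.4% ± 0.983, 28.3% ± 3.03 and 28.1% ± 3.83. In NF-YAl it also overlapped with the 8449-base form, and in NF-YAl replicate A it was the higher of the pair, at 30.8% against 27.2%. Each of the non-overlapping pairs had p = 0.1 in a two-sided exact permutation test, the smallest value that 3 against 3 libraries allow, and an adjusted p of 0.35 over 35 such tests of member transcripts, so the permutation test cannot separate these groups at 0.05. RSEM's division of reads among forms that share most of their sequence carries an error that these percentages do not show.

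**Figure D3:**
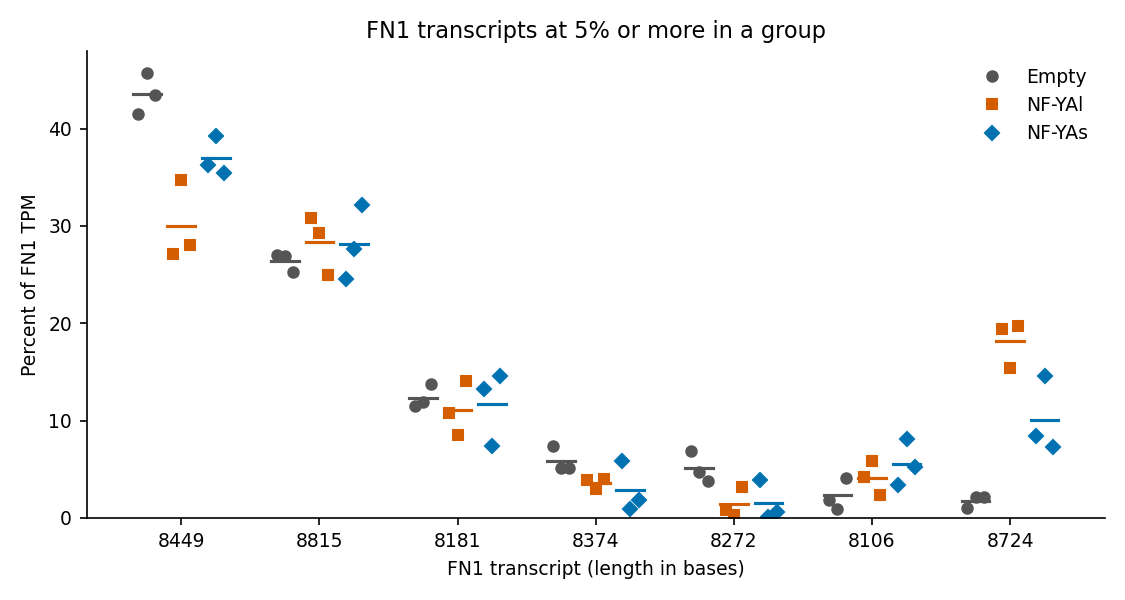
Percent of FN1 TPM assigned to each of the 7 transcripts that reach 5% in a group, by transcript length in bases; points are libraries and bars are group means for Empty, NF-YAl and NF-YAs. The 8724-base form is lowest in Empty (1.78% mean) and highest in NF-YAl (18.1%), and the 8449-base form has the reverse order.

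TNC encodes a large hexameric glycoprotein that loosens the adhesion of cells to fibronectin. The gene lies at chr9:117781854-117880486 of GRCh37 (minus strand, 28 exons). It had 133, 174 and 139.8 CPM in Empty replicates A, B and C, 93.1, 122 and 112 CPM in NF-YAl replicates A, B and D, and 359.5, 453 and 436 CPM in NF-YAs replicates A, B and C. Each NF-YAs library was above all other libraries, and the NF-YAl libraries were the lowest. TNC rose in NF-YAs by a log2 fold change of 1.48 over Empty (SE 0.14, adjusted p = 1.09e-05). NF-YAl against Empty gave a log2 fold change of -0.44 (SE 0.14, adjusted p = 0.0271), which did not pass the threshold, and on log2(TPM + 1) with limma it was -0.13 with an adjusted p of 0.791. The direct comparison gave a log2 fold change of -1.93 (SE 0.14, adjusted p = 1.20e-05), with the NF-YAl mean at 0.263 times the NF-YAs mean. The ratio of TNC TPM to FN1 TPM within a library, which library scaling does not touch, ranged from 0.0657 to 0.107 in Empty. It was between 0.0604 and 0.114 in the NF-YAl libraries and between 0.314 and 0.393 in the NF-YAs libraries.

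SPARC encodes osteonectin, a collagen-binding glycoprotein that favours the rounding of cells, at chr5:151040657-151066536 of GRCh37 (minus strand, 10 exons). Its level was 267, 319.99 and 294 CPM in Empty replicates A, B and C, 2375 CPM, 1292 CPM and 954 CPM in NF-YAl replicates A, B and D, and 699.5, 716 and 779 CPM in NF-YAs replicates A, B and C. The groups did not overlap, but NF-YAl was widely spread (1540.3 ± 743 CPM), with replicate A far above the other two. SPARC rose in NF-YAl by a log2 fold change of 2.39 (SE 0.26, adjusted p = 3.68e-05), a 5.25-fold higher mean. Its rise in the NF-YAs line was 1.32 on the log2 scale (SE 0.25, adjusted p = 0.00159), a 2.49-fold higher mean. The NF-YAl call held without each library in turn, with log2 fold changes from 1.94 without NF-YAl replicate A to 2.64 without NF-YAl replicate D. The NF-YAs call was lost only without Empty replicate A among the single libraries left out (log2 fold change 1.26, adjusted p = 0.0101).

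The direct difference between the lines in SPARC, a log2 fold change of 1.07 (SE 0.25, adjusted p = 0.00940), lay close to both thresholds. It rested on NF-YAl replicate A for its size, since the log2 fold change was 0.62 without it, and the call was lost without each of the other libraries too, except NF-YAl replicate D (1.33, adjusted p = 0.000383). Every NF-YAl library was above every NF-YAs library, but how many of all tested genes separate in this way was not counted. Relative to FN1 in the same library, SPARC TPM was 0.339 to 0.484 of FN1 TPM in Empty, 1.51 to 1.72 times FN1 in the NF-YAs libraries and 2.33 to 3.79 times FN1 in those of NF-YAl.

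**Figure D4:**
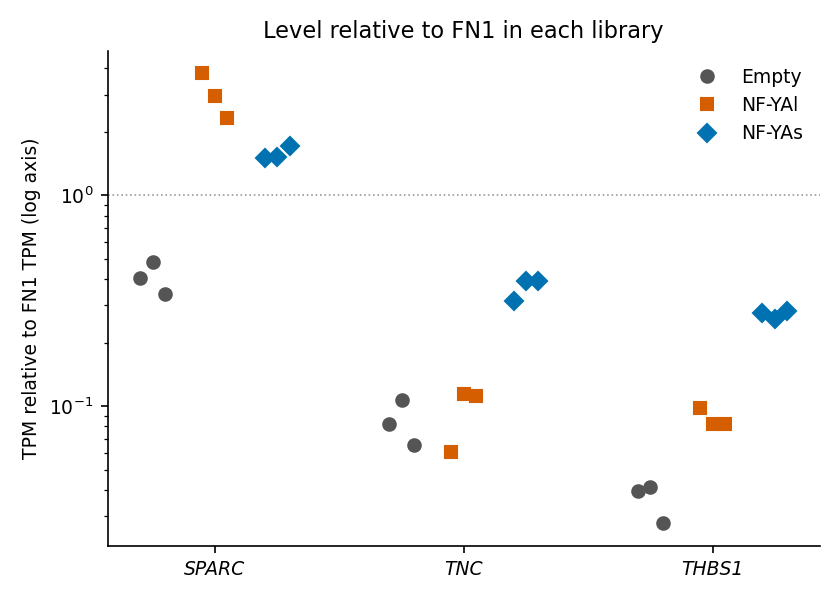
TPM of SPARC, TNC and THBS1 divided by FN1 TPM in the same library (log axis; the dotted line marks equal levels), by group, with 1 point per library. SPARC is below FN1 in the 3 Empty libraries and above it in all 6 NF-YA libraries, and TNC and THBS1 are closest to FN1 in NF-YAs.

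THBS1 and THBS2 encode trimeric thrombospondins that bind CD36 and CD47, and THBS1 is known for activating latent TGF-β. THBS1 (chr15:39873280-39891667 of GRCh37, plus strand, 22 exons) had 53.3, 56.2 and 49.7 CPM in Empty replicates A, B and C, 126, 74.7 and 69.7 CPM in NF-YAl replicates A, B and D, and 265, 250.1 and 263 CPM in NF-YAs replicates A, B and C. The 3 groups did not overlap, and NF-YAl replicate A was again the highest of its group. THBS1 rose in NF-YAs by a log2 fold change of 2.29 (SE 0.19, adjusted p = 4.47e-06), a 4.89-fold higher mean. In NF-YAl the log2 fold change was 0.76 (SE 0.18, adjusted p = 0.00703), past the threshold on p but not on the fold change, and it was 0.45 without NF-YAl replicate A. The direct log2 fold change of NF-YAl against NF-YAs was -1.53 (SE 0.18, adjusted p = 0.000170). FSIP1, which lies partly opposite THBS1 and is also in the count tables, could share reads with it if strand was not used in counting.

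THBS2 (chr6:169615875-169654145 of GRCh37, minus strand, 22 exons) was a low gene in all libraries. It had 8, 7 and 6 counts in Empty replicates A, B and C, 17, 14 and 23 counts in NF-YAl replicates A, B and D, and 109, 47 and 202 counts in NF-YAs replicates A, B and C. In CPM these were means of 0.283 ± 0.0499, 0.806 ± 0.204 and 5.84 ± 3.48, without overlap, and the NF-YAs libraries differed among themselves from 2.34 to 9.31 CPM. THBS2 rose in NF-YAs by a log2 fold change of 4.35 (SE 0.50, adjusted p = 4.67e-05). In NF-YAl the log2 fold change over Empty was 1.49 (SE 0.58, adjusted p = 0.0679), and the direct log2 fold change of NF-YAl against NF-YAs was -2.86 (SE 0.44, adjusted p = 0.000903). Without NF-YAs replicate C, which had the most counts, these were 3.83 over Empty (adjusted p = 0.000169) and -2.34 in the direct comparison (adjusted p = 0.00426).

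The spondins were the only tested members called lower in an NF-YA line, and both were scarce. SPON1, or F-spondin, first known from the floor plate of the neural tube, had 135, 111 and 135 counts in Empty replicates A, B and C, 43, 63 and 59 counts in NF-YAl replicates A, B and D, and 34, 34 and 79 counts in NF-YAs replicates A, B and C. Its CPM means were 5.13 ± 0.646, 2.43 ± 0.148 and 2.39 ± 1.09, and both lines lay below Empty in every library. SPON1 fell in NF-YAl with a log2 fold change of -1.07 (SE 0.27, adjusted p = 0.00894). For NF-YAs it was -1.09 (SE 0.27, adjusted p = 0.00767). Both calls sat at the threshold: the NF-YAl call was lost without any 1 library of Empty or NF-YAl and without NF-YAs replicate A, and the NF-YAs call without any 1 Empty library, NF-YAl replicate B, or NF-YAs replicate A or B. A fit with the replicate letter as a block also lost the NF-YAl call. NF-YAl and NF-YAs overlapped, with a direct log2 fold change of 0.016 (SE 0.28, adjusted p = 0.973).

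SPON2 (mindin, an integrin ligand; chr4:1160720-1202750 of GRCh37, minus strand, 6 exons) had 31, 26 and 27 counts in Empty replicates A, B and C, 5, 9 and 11 counts in NF-YAl replicates A, B and D, and 8, 15 and 8 counts in NF-YAs replicates A, B and C. All Empty libraries were above all others. SPON2 fell in NF-YAl with a log2 fold change of -1.61 (SE 0.36, adjusted p = 0.00460), a call that was lost without any 1 Empty library and without NF-YAl replicate A or B. It was -1.13 in NF-YAs (SE 0.35, adjusted p = 0.0236), which did not pass, and the direct difference was -0.48 (SE 0.40, adjusted p = 0.413).

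Osteopontin (SPP1; chr4:88896819-88904684 of GRCh37, plus strand, 7 exons), a secreted phosphoprotein of bone and a ligand of integrins and CD44, was nearly absent from Empty. It had 0, 1 and 1 counts in Empty replicates A, B and C, 6, 4 and 17 counts in NF-YAl replicates A, B and D, and 9, 7 and 12 counts in NF-YAs replicates A, B and C. Summed over libraries, the ratio to Empty was 14.9 for NF-YAl (95% exact interval 3.73 to 129) and 17.3 for NF-YAs (4.35 to 149.5), where the intervals cover counting error only. In the fit of all 9 libraries, SPP1 was called higher in NF-YAl (adjusted p = 0.00545) and in NF-YAs as well (adjusted p = 0.00314), but the NF-YAl call was lost without NF-YAl replicate D or any 1 Empty library, and the NF-YAs call without NF-YAs replicate A or C or any 1 Empty library. With limma on log2(TPM + 1) neither was called (adjusted p = 0.0331 and 0.0347), and in a fit of NF-YAl and Empty alone SPP1 did not pass the filter. The NF-YAl call was lost as well in a fit with the replicate letter as a block. The lines overlapped, with a direct log2 fold change of -0.22 (SE 0.52, adjusted p = 0.793).

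The fasciclin-domain genes did not pass the filter on low counts in the main fit, and their tests given here are from the fit without it. TGFBI (chr5:135364677-135399507 of GRCh37, plus strand, 17 exons) had 2, 3 and 3 counts in Empty replicates A, B and C, 4, 3 and 9 in NF-YAl replicates A, B and D, and 12, 8 and 15 in NF-YAs replicates A, B and C. Its summed ratio to Empty was 5.39 in NF-YAs (95% exact interval 2.46 to 13.5) and 2.20 in NF-YAl (0.888 to 5.94). Without the filter, edgeR gave TGFBI a log2 fold change of 2.38 for NF-YAs over Empty (SE 0.58, adjusted p = 0.00504), past both thresholds, and 1.11 for NF-YAl (SE 0.65, adjusted p = 0.255). POSTN (chr13:38136720-38172981 of GRCh37, minus strand, 23 exons) had 0 or 1 counts in each Empty library, 1 to 3 in NF-YAl and 1 to 5 in NF-YAs. The summed ratio to Empty was 5.55 for NF-YAs (95% exact interval 1.15 to 52.8) and 3.30 for NF-YAl (0.590 to 33.4). Only 2 counts in the Empty libraries stand behind these ratios, and without the filter the adjusted p of edgeR was 0.131 for NF-YAs and 0.371 for NF-YAl.

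The receptors that bind these proteins are mostly integrins. This list and those in the next paragraphs were also chosen with earlier results of these data known, so their shares of calls are a description only. Of 21 listed, 16 were tested, and 3 rose and 1 fell in NF-YAl, 2 rose and 1 fell in NF-YAs, and 1 was higher in NF-YAl in the direct comparison. Calls in either direction made up 25% of the tested receptors in NF-YAl, 18.75% in NF-YAs and 6.25% between the lines, beside 8.27%, 9.34% and 4.61% of all tested genes. ITGB3, the β3 chain of the αvβ3 integrin that binds SPP1, FN1 and THBS1, was at 3.17 CPM in Empty. It rose to 34.8 CPM in NF-YAl (log2 fold change 3.45, adjusted p = 1.39e-06) and to 66.5 CPM with NF-YAs (4.39, adjusted p = 3.99e-07). Its partner ITGAV rose in NF-YAl by a log2 fold change of 1.002 (SE 0.125, adjusted p = 9.45e-05), just past the limit. ITGA2, the α2 chain of a collagen receptor, fell in both lines, by log2 fold changes of -1.32 and -1.18. ITGA5 and ITGB1, the chains of the main fibronectin receptor, were not called, with NF-YAl log2 fold changes of -0.68 and 0.59 and NF-YAs log2 fold changes of 0.20 and 0.49.

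Of 36 relatives of the members, 25 were tested, of which 2 rose and 3 fell in NF-YAl, 3 rose and 4 fell in NF-YAs, and 1 was higher and 2 lower in NF-YAl than in NF-YAs. These are 20%, 28% and 12% of the tested relatives, to be read against the same shares of all tested genes. WISP1, a CCN family protein, fell in both lines (log2 fold changes -1.86 and -1.80), as did ECM1 (-1.24 and -1.67), and SPOCK3, a testican of the SPARC family, rose in both (1.42 and 1.66). SPOCK1, its paralog, differed between the lines in the same direction as TNC and THBS1, at 28.4 CPM in NF-YAl and 87.0 CPM in NF-YAs (direct log2 fold change -1.62, SE 0.19, adjusted p = 0.000168). Against Empty, at 69.1 CPM, SPOCK1 was called lower in NF-YAl (log2 fold change -1.28, adjusted p = 0.000342). In NF-YAs it was not called (0.33, adjusted p = 0.188), whereas TNC and THBS1 were called higher there. TNXB, a tenascin, had 353 CPM in Empty, 134 CPM in NF-YAs and 289.7 CPM in NF-YAl, opposite in order to TNC between the lines (direct log2 fold change 1.11, adjusted p = 6.79e-05), and its reads are uncertain because a partial copy of the gene lies beside it.

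Of 9 genes of the TGF-β axis, which regulates many matricellular genes, SKIL, a repressor of the pathway, was called in NF-YAl against Empty (log2 fold change 1.53) and TGFBR2, the type II receptor, in NF-YAs (1.16), both higher. LTBP1, which stores latent TGF-β in the matrix, was lower in NF-YAl than in NF-YAs (direct log2 fold change -1.17). Calls in either direction made up 11.1% of the axis genes in NF-YAl, 11.1% in NF-YAs and 22.2% between the lines. The shares of all tested genes were 8.27%, 9.34% and 4.61%. Of 11 enzymes that cleave or modify these proteins, 2 rose in NF-YAl, while 3 rose and 2 fell in NF-YAs. Calls made up 18.2%, 45.5% and 45.5% of these enzymes in the same order of comparisons. ADAMTS1, a protease that cleaves thrombospondins, fell in NF-YAs from 290.1 to 53.3 CPM (log2 fold change -2.44, SE 0.14, adjusted p = 4.21e-07) and was higher in NF-YAl than in NF-YAs (1.63, adjusted p = 1.88e-05). MMP9, a gelatinase, rose in NF-YAs from 0.673 to 5.52 CPM (3.03, adjusted p = 3.25e-06).

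**Figure D5:**
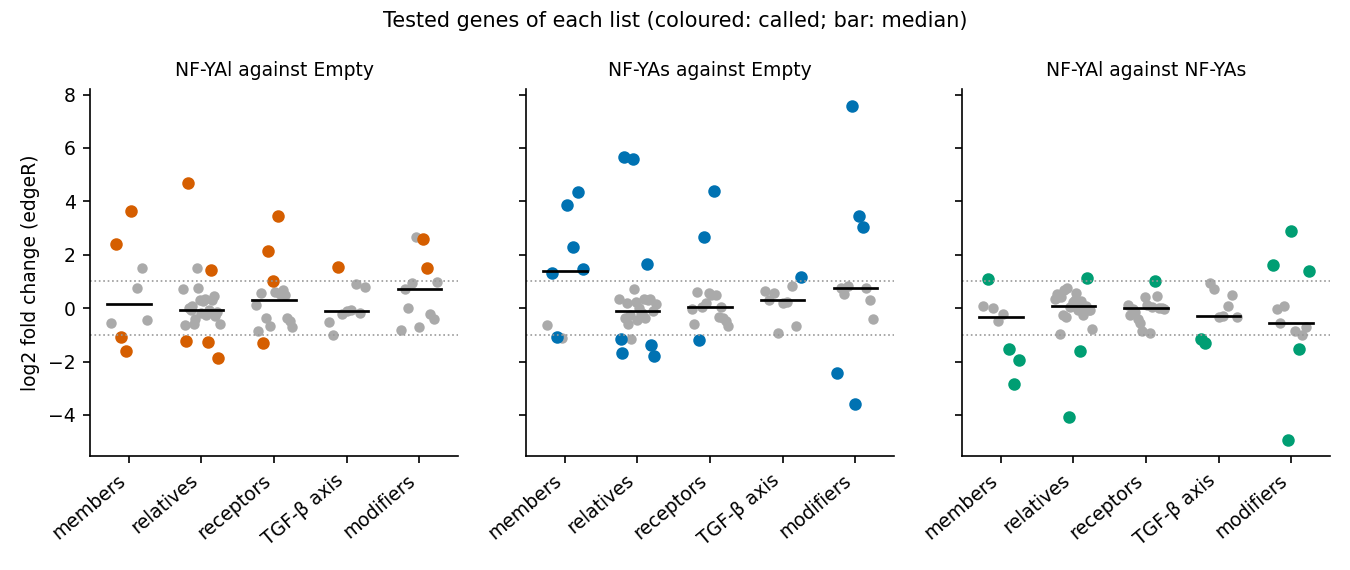
log2 fold changes (edgeR) of the tested genes among the members (8), their relatives (25), receptors (16), the TGF-β axis (9) and modifying enzymes (11) in each comparison; coloured points were called, grey points were not, and bars are list medians. In NF-YAs against Empty the medians are 1.40 for the members, 0.75 for modifying enzymes, 0.31 for the TGF-β axis, 0.040 for receptors and -0.099 for relatives. The members' median includes SPP1 and THBS2, which passed the filter only through the NF-YA libraries.

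The genes whose log2 CPM followed a member most closely over the 9 libraries, given as a description since the libraries share groups and scaling, were CNN3 for TNC (Pearson's r = 0.991), SLC7A8 for SPARC (0.990), BMPR1B for THBS1 (0.994), GLIPR1 for THBS2 (0.969), CD55 for FN1 (0.968), PDPR for SPON2 (0.965), PRPF38B for SPP1 (0.978) and MGC32805 for SPON1 (0.937). Among the 5 tested genes on each side of TNC in the genome, the median log2 fold change was -0.068 in NF-YAs against Empty, around THBS1 it was 0.29, and around SPARC -0.41, beside fold changes of 1.48, 2.29 and 1.32 on the log2 scale for the 3 members themselves. Single neighbours moved further: around TNC they ranged from -0.67 to 2.81, with 1 called higher, and around SPARC from -5.25 to 0.44, with 2 called lower.

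Markers of other cells were measured beside these results, since several members are abundant in stroma. Summed over 5 mesenchymal markers, CPM ranged from 26.0 to 71.6 in Empty, from 76.8 to 262 among NF-YAl libraries and from 99.8 to 149 among those of NF-YAs. COL3A1 made up nearly all of these sums, while DCN, LUM, PDGFRB and THY1 stayed below 0.6 CPM in every library. The 3 leukocyte markers summed to 54.3 to 71.7 CPM in Empty, 20.6 to 36.6 CPM with NF-YAl and 28.4 to 36.6 CPM with NF-YAs, nearly all of it CD68, which was called lower in NF-YAl, while PTPRC and CD14 stayed below 1 CPM. The 3 endothelial markers summed to 12.6 to 14.2 CPM in Empty, 6.13 to 7.05 CPM with NF-YAl and 7.81 to 8.66 CPM with NF-YAs. VWF was called lower in NF-YAl (group means of 6.87 and 0.725 CPM) and PECAM1 in NF-YAs (6.27 and 1.88 CPM), while CDH5 was below 0.5 CPM in every library. The 4 epithelial markers summed to 612 to 695 CPM in Empty, 375 to 403 CPM with NF-YAl and 397 to 457 CPM with NF-YAs, carried by KRT8 and KRT18. EPCAM went the other way and was called higher in both lines (mean 0.982 CPM in Empty, 4.42 CPM with NF-YAl and 2.71 CPM with NF-YAs), and CDH1 was called lower in NF-YAs against Empty (means of 6.58 and 2.63 CPM). KLK3, the gene of prostate-specific antigen, was at 0 counts in all 9 libraries. The part of these markers in the members' differences was not tested.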

How the data were processed

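RNA of pooled PC3 MTSs was sequenced in 9 libraries (total RNA, stranded kit per the labels). The authors aligned reads to human GRCh37 transcripts with Bowtie2 within RSEM and deposited, for each gene and transcript, the expected count, TPM and FPKM, and for transcripts the percent of the gene's TPM. FPKM, as deposited, was not used. Whether counting used strand is not given in the sources used here. Groups and replicate letters came from the labels.

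For tests, gene-level values were rounded to whole numbers and fitted in edgeR 4.0.16 under R 4.3.3 (filterByExpr, TMM, 9 libraries in 1 quasi-likelihood fit of 3 groups, Benjamini-Hochberg adjustment over 17108 genes, no replicate block). SEs are the absolute log2 fold change over the square root of F. On simulated data with 200 changed genes in NF-YAs against Empty, edgeR recovered 198 and called 0 others. The changed genes averaged above 1 CPM and were set to log2 fold changes of 2 or 3 in size. Calls near the threshold or of scarcer genes lay outside that simulation. The members and lists were chosen with earlier results of these data known. List genes named were up to 4 per list and comparison with the largest absolute log2 fold change among those called, provided that the higher group averaged at least 5 CPM and the libraries of both groups were separate, of which a part is named (some listed genes are not reported here), and ITGA5 and ITGB1 were added after their values were seen, as were the TPM ratios. For likeness, 2 genes per member were chosen by Pearson's r and the first is named. Alternatives were DESeq2 1.42.0, limma 3.58.1 on log2(TPM + 1), relative log expression scaling, filters, a 2-group fit, effective length as an offset, the letter as replicate block, other thresholds and leaving out each library. Positions are from GENCODE on GRCh37 and promoters from RefSeq on GRCh38.p14.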

Additional observations from a re-analysis of the deposited data

Results flagged for a closer look

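TNC is the 1 member whose fold changes over Empty had opposite signs in the lines and whose direct test was called. Its log2 fold change was 1.48 in NF-YAs and -0.44 in NF-YAl, of which the second did not pass the threshold, and edgeR's test of NF-YAl against NF-YAs gave -1.93 (SE 0.14, adjusted p = 1.20e-05), with 3 of 3 NF-YAl libraries below 3 of 3 NF-YAs libraries. Groups of 3 libraries were not searched for outliers.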

How the results depend on the processing

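Of 396 recomputed log2 fold changes of tested members, 343 kept direction and side of the threshold, 47 kept the direction but lost the call, and 6 changed sign. Main counts of members called higher and lower were 2 and 2 in NF-YAl against Empty, 5 and 1 in NF-YAs against Empty, and 1 and 3 in NF-YAl against NF-YAs. With at least 10 counts in every library, where THBS2, SPON2 and SPP1 were not tested, these became 1 and 1 in NF-YAl against Empty, 3 higher in NF-YAs against Empty and 0 higher between the lines, where SPARC was still tested and narrowly missed the adjusted p threshold. With limma on log2(TPM + 1), which changes tool, scaling and pseudocount together, 1 and 0 were called in NF-YAl, 0 lower in NF-YAs and 0 higher between the lines, and the cause was not tested. The fit of the 2 groups compared called 1 higher in NF-YAl and 0 higher between the lines. An adjusted p under 0.05, or no limit on the fold change, called 2 lower in NF-YAs. Calls over all tested genes were not counted at these thresholds. Leaving out 1 library gave 1 to 2 higher and 0 to 2 lower in NF-YAl, 3 to 6 higher and 0 to 1 lower in NF-YAs, and 0 to 1 higher between the lines. The count of 6 includes a fasciclin-domain gene, which passed the filter when a library was left out.

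Sign changes were seen for members not called between the lines: over the libraries left out, SPON1 ranged from -0.18 to 0.47, FN1 from -0.13 to 0.21 and SPP1 from -0.97 to 0.17, and SPP1 was 0.0017 with limma. With the letter as replicate block, 1 member was called higher and 1 lower in NF-YAl against Empty, since SPP1 and SPON1 lost their calls, and the calls of the other members in the 3 comparisons were kept. Residuals of same-letter libraries had correlations from -0.065 to 0.25 over 7 pairs. Their mean was 0.086, against -0.030 over 20 other pairs, and 2 Empty libraries were closest to their own letter in NF-YAs. These values do not decide whether the letters pair the samples, and the main fit used no block. Of all genes, 815 were called higher and 599 lower in NF-YAl, against 511 and 164 with limma on TPM, where the median of all genes moved to 0.22 on the log2 scale. In NF-YAs, 931 and 667 were called, against 477 and 213 with limma. Between the lines, 298 and 490 were called, against 144 and 166 with limma. With at least 10 counts in every library, 15046 genes were tested. Of these, 593 and 471 were called in NF-YAl, 618 and 532 in NF-YAs, and 244 and 334 between the lines.

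Over the lists, marker lists not included, 8 genes were called higher and 4 lower in NF-YAl, 9 and 7 in NF-YAs, and 5 and 6 between the lines. With at least 10 counts, 5 and 4 were called higher in NF-YAl and NF-YAs. With limma, 1 was lower in NF-YAl, 5 higher and 4 lower in NF-YAs, and 3 higher and 2 lower between the lines. With no limit on the fold change, 18 higher and 12 lower were called in NF-YAl, 20 and 11 in NF-YAs, and 11 lower between the lines. How many of all tested genes are called without that limit was not counted, so these counts have no share beside them. Leaving out 1 library gave 4 to 10 higher in NF-YAl and 3 to 5 higher between the lines. For members under 20 counts a library, depth limits what can be called.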
